A study of Mus musculus with 26 samples.

Results

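Hepatic fat synthesis was followed through 10 genes, found by their symbols among the 35976 rows of a bulk RNA sequencing count table of mouse liver tumours and control livers: Acaca, Acly, Fasn, Scd1, Elovl6, Srebf1, Pnpla3, Thrsp, Me1 and Mlxipl. All 10 were found in the table, and all 10 passed the low-count filter in each of the 3 comparisons. The table held 26 libraries in 4 groups. Cyp1a2_CA tumours (10 libraries of 9 animals) carried Cyp1a2-CreERT2, Ctnnb1(ex3)fl/+ and Arid2fl/fl. Gls2_CA tumours (9 libraries of 5 animals) carried Gls2-CreERT2 with the same Ctnnb1 and Arid2 alleles. A single Cyp1a2_C tumour library carried Cyp1a2-CreERT2 and Ctnnb1(ex3)fl/+ with no floxed Arid2 allele. All tumour mice were a mix of C57BL/6J and Swiss Webster, received tamoxifen on postnatal day 28 and were followed for 6 to 12 months. The WT group (6 livers, 1 library each) was C57BL/6J, received AAV-Cre and was kept on normal chow for up to 12 months. CreERT2 is a recombinase that acts after tamoxifen. Cyp1a2 is a gene of hepatocytes around the central vein and Gls2 of those around the portal vein, so the drivers address the zone in which a tumour begins. Recombination of the Ctnnb1(ex3) allele gives a stabilised beta-catenin, and Arid2 codes for a component of PBAF, a remodeller of chromatin. Strain, virus, tamoxifen and the tumour alleles all change together between tumours and WT, so their parts cannot be told apart.

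De novo lipogenesis turns citrate exported from mitochondria into fatty acids. Acly cleaves citrate to acetyl-CoA, Acaca carboxylates it to malonyl-CoA, Fasn builds palmitate with NADPH that Me1 helps to supply, and Elovl6 and Scd1 lengthen and desaturate the product. In liver the pathway is driven after feeding by SREBP-1c, encoded by Srebf1 and activated by insulin, and by ChREBP, encoded by Mlxipl and activated by glucose metabolites. Thrsp (Spot 14) is a small protein induced with the lipogenic enzymes, and Pnpla3 is a lipid droplet protein whose gene is a target of SREBP-1c.

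The bases before the start sites are shown for the 4 members with the largest differences between tumours and WT in either comparison with WT. The sequences are RefSeq's (GRCm38.p6), 250 bases before the annotated start on the strand of the gene, 5′ to 3′, in lower case with matches to CCAAT and to the E-box CACGTG in capitals. They lie at chr11:120824548-120824797 (minus strand, Fasn), chr7:97417551-97417800 (minus strand, Thrsp), chr3:129532136-129532385 (plus strand, Elovl6) and chr5:135089640-135089889 (plus strand, Mlxipl).
Fasn: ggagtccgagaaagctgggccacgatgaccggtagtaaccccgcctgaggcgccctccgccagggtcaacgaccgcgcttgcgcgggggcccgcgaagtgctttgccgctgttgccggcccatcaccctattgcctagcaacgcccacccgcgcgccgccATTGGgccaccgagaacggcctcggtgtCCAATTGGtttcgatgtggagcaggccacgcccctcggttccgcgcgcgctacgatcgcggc
Thrsp: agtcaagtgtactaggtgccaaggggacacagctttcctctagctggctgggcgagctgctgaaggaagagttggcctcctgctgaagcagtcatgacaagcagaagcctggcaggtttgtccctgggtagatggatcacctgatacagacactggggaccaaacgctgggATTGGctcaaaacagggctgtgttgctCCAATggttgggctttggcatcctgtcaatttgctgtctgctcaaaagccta
Elovl6: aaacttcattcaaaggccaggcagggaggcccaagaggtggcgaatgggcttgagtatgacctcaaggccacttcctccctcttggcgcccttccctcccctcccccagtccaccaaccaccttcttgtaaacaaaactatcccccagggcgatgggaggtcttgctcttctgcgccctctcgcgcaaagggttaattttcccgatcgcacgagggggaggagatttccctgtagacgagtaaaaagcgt
Mlxipl: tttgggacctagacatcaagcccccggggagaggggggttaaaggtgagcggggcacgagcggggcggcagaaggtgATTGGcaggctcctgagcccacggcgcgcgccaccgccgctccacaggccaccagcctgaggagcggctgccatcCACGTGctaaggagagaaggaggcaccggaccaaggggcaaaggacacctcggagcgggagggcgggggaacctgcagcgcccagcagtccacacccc
RefSeq windows were matched for 9 of the 10 members, 13 windows in all because Srebf1, Me1 and Mlxipl have more than 1 start, and Scd1 had no entry. The full windows, with 50 further bases after the start, were searched on both strands. The CCAAT box (CCAAT), bound by NF-Y, was found in 8 of the 13 windows and in 37.4% of all 32851 windows of that length. In Fasn it occurred 3 times, at 90, 62 and 59 bases before the start, the last pair overlapping, and in Thrsp it began 79 and 52 bases before the start. The Elovl6 window held none. The E-box CACGTG, the core of the sites bound by ChREBP and its partner, was present only in the window of Mlxipl shown here, against 7.15% of all windows, and the sterol regulatory element TCACNCCAC was present only in the other Mlxipl window, as TCACACCAC, against 1.24%. The GC box GGGCGG was found in 6 of the 13 windows (35.7% of all windows) and TATAAA in 0 (13.6%). A carbohydrate response element written as a pair of E-boxes 5 bases apart, with no mismatch allowed, was found in 0 of the 32851 windows. A pattern with no match anywhere cannot tell whether the members carry such an element.

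Library totals were 37051941 to 49254470 counts in Cyp1a2_CA, 36992043 to 42865787 in Gls2_CA, 41038144 in Cyp1a2_C and 13486530 to 16975288 in WT, and mitochondrial genes took 1.81 to 6.73% of the counts in Cyp1a2_CA and Gls2_CA against 8.90 to 11.1% in WT. Arid2, the deleted gene, was lower in both groups with the floxed allele (31.1 against 67.2 CPM in Cyp1a2_CA, log2 fold change -1.18, SE 0.105, adjusted p = 6.16e-08, and 36.3 CPM in Gls2_CA, -0.97, SE 0.166, adjusted p = 0.000227). CPM are counts relative to the TMM-scaled library total in the usual unit. The summed level of 12 hepatocyte markers was 108507 to 131288 CPM in WT, 19742 to 115746 in Cyp1a2_CA and 8201 to 48470 in Gls2_CA, and 9 of 12 and 8 of 12 fell against WT while 0 rose. It was 1078 CPM in the Cyp1a2_C library, so these markers alone do not bear out the liver label of that library. A liver tumour low in these markers and other tissue cannot be told apart here. In 4 libraries, CAB44-L and CAB225-L of Cyp1a2_CA, GAB235-S of Gls2_CA and CB6-L of Cyp1a2_C, Ttn (titin) was above 1000 CPM. The summed level of 10 muscle and sarcomere markers, Ttn among them, was 109 to 153 CPM in WT, 279 to 21569 in Cyp1a2_CA and 833 to 30767 in Gls2_CA, and of the 5 tested 3 rose and 1 fell, and 4 rose and 1 fell. Of 10 adipocyte markers, Lep was at 0 in every library and Adipoq at 0 in every Cyp1a2_CA and WT library, and the summed level was 7.09 to 11.9 CPM in WT, 7.73 to 31.9 in Cyp1a2_CA and 7.90 to 40.7 in Gls2_CA, with 1 of 3 tested rising in Cyp1a2_CA and 0 in Gls2_CA. Summed macrophage markers (10 genes) were 261 to 291 CPM in WT, 68.8 to 213 in Cyp1a2_CA and 56.2 to 278 in Gls2_CA, and summed endothelial markers (10 genes) 574 to 660, 267 to 508 and 249 to 487. Of the macrophage markers 0 rose and 5 fell in Cyp1a2_CA and 2 rose and 5 fell in Gls2_CA, and of the endothelial markers 2 rose and 6 fell, and 1 rose and 6 fell. Summed stellate and fibroblast markers (10 genes) were 419 to 503 CPM in WT, 165 to 692 in Cyp1a2_CA and 107 to 341 in Gls2_CA, and summed cholangiocyte markers (8 genes) 48.9 to 80.3, 53.7 to 215 and 89.96 to 251. Of the stellate and fibroblast markers 1 rose and 3 fell in Cyp1a2_CA and 1 rose and 6 fell in Gls2_CA, and of the cholangiocyte markers 3 of 8 rose and 1 fell, and 3 of 7 tested rose and 2 fell. Summed T, B and NK cell markers (10 genes) were 4.89 to 7.82 CPM in WT, 1.48 to 32.6 in Cyp1a2_CA and 2.38 to 16.5 in Gls2_CA, and 0 rose while 2 of 7 and 1 of 3 tested fell. Over all tested genes 38.3% rose and 32.7% fell in Cyp1a2_CA, and 39.2% rose and 34% fell in Gls2_CA. Depth and mitochondrial share move with the contrast of tumours and WT, as do some markers of each of these cell types, the adipocyte markers in Gls2_CA excepted. For several lists the share called was below that over all genes and the summed levels overlapped with WT. The stellate and fibroblast markers in Cyp1a2_CA and the T, B and NK cell markers were among these. The part of depth, mitochondrial share and cell content in the differences below was not tested. In bulk tissue fewer hepatocytes and less of an RNA per hepatocyte cannot be told apart.

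The members moved in both directions in the tumours. Against WT, Mlxipl and Acaca rose and Thrsp, Elovl6, Fasn and Acly fell in Cyp1a2_CA. In Gls2_CA, Mlxipl and Acaca rose and Thrsp, Elovl6, Fasn, Acly, Srebf1 and Scd1 fell. The direction of Acaca turned in both groups with an offset for exon length and GC content. A gene passed where its adjusted p over all genes was under 0.05. In Cyp1a2_CA 2 of 10 rose and 4 fell, against a background of 70.9% of 16841 tested genes called (38.3% higher, 32.7% lower). In Gls2_CA 2 of 10 rose and 6 fell, against 73.2% of 14976 (39.2% higher, 34% lower). The shares of members called in either direction were therefore near the background. By direction, a smaller share rose and a larger share fell than over all genes in both groups, a difference that was not tested. The median log2 fold change of the members was -0.70 in Cyp1a2_CA and -1.04 in Gls2_CA, and that of all genes tested 0.17 and 0.14. With the offset the members' medians were -1.17 and -1.64. Both comparisons use the same 6 WT livers. With the Ttn-high libraries left out the counts were 2 up and 4 down, and 2 up and 6 down.

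**Figure D1:**
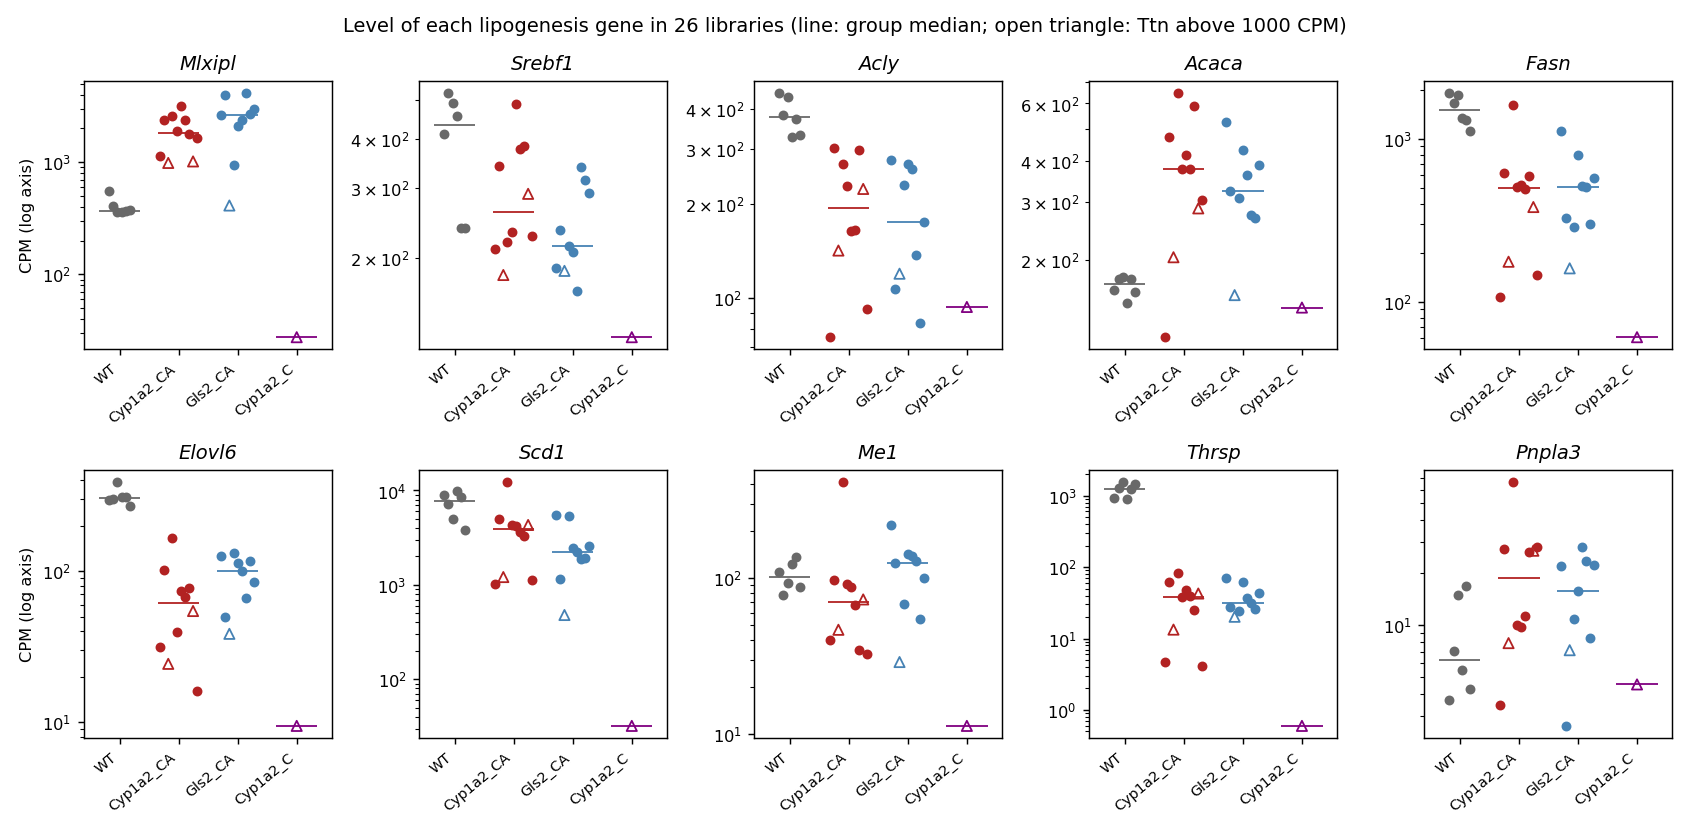
Level of each of the 10 genes (CPM, log axis) in every library, by group on the horizontal axis, with a line at the group median and open triangles for the 4 libraries with Ttn above 1000 CPM. Thrsp and Elovl6 are below every WT library in all tumour libraries, Mlxipl is above every WT library in all but 2 (GAB235-S and CB6-L), and Me1 overlaps WT.

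Exon length moved with the contrast. The 2457 genes with more than 8000 exonic bases had a median log2 fold change of 1.27 in Cyp1a2_CA against WT, and the 2531 genes with up to 2000 bases -0.70. In Gls2_CA the medians were 1.24 (2352 genes) and -0.79 (2093 genes). Acaca, with 17074 exonic bases, and Fasn, with 10947, belong to the longest class, and Pnpla3 (1548 bases) to the shortest. Each member is therefore given also with an offset that levels the effect of exon length and GC content over all genes.

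Mlxipl, the gene of the glucose-responsive factor ChREBP (chromosome 5, 135089890 to 135138382, plus strand), was the member that rose most. It was at 360, 370 and 551 CPM in the lowest, median and highest of 6 WT livers and at 969, 1928 and 3254 CPM in 9 Cyp1a2_CA animals. In the 5 Gls2_CA animals it was at 2680 (GAB18), 4053 (GAB229), 408 (GAB235), 1856 (GAB242) and 3309 CPM (GAB294). All 9 Cyp1a2_CA animals and 4 of 5 Gls2_CA animals were above every WT liver, the exception being the Ttn-high GAB235. Mlxipl was 4.47-fold higher in Cyp1a2_CA (log2 fold change 2.16, SE 0.270, adjusted p = 3e-06) and 5.61-fold higher in Gls2_CA (2.49, SE 0.426, adjusted p = 0.000233). With the offset it was 1.56 and 1.84. The Cyp1a2_C tumour was at 26.5 CPM, below all other libraries.

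Srebf1, the gene of SREBP-1 (chromosome 11, 60199089 to 60222581, minus strand), did not rise. WT livers held 238, 435 and 524 CPM (lowest, median, highest), Cyp1a2_CA animals 178, 239 and 502, and Gls2_CA animals 194 (GAB18), 242 (GAB229), 184 (GAB235), 199 (GAB242) and 323 (GAB294). The groups overlapped, with 2 WT livers near 238 CPM and the other 4 above 410. The log2 fold change was -0.89 in Gls2_CA (SE 0.253, adjusted p = 0.00728), where it fell, and -0.52 in Cyp1a2_CA (SE 0.239, adjusted p = 0.0600), which did not pass. The Gls2_CA call was lost with limma-voom (adjusted p = 0.0707, range over the alternatives 0.000187 to 0.0707). In Cyp1a2_CA the value passed under 7 of 26 alternatives, among them the length and GC offset (-1.23, adjusted p = 0.000985, range 0.000985 to 0.274) and the fits without CAB26 (0.0138), CAB28 (0.0475), WT_Cre-BL5 (0.0298) or WT_Cre-BL6 (0.0298). In Gls2_CA the value with the offset was -1.70. Counts of Mlxipl per count of Srebf1, which need no library scaling, were 0.729 to 1.57 in WT libraries, 3.50 to 11.9 in Cyp1a2_CA and 2.21 to 16.8 in Gls2_CA, with no overlap with WT.

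Of the enzymes of palmitate synthesis, Acly and Fasn fell in both groups, and Acaca rose without the offset but was below WT with it. Acly, ATP citrate lyase (chromosome 11, 100476353 to 100528000, minus strand), was at 328, 379 and 453 CPM in WT (lowest, median, highest) and 75.5, 223 and 306 in Cyp1a2_CA. The Gls2_CA animals were at 283 (GAB18), 110 (GAB229), 119 (GAB235), 258 (GAB242) and 132 CPM (GAB294). Every tumour animal of both groups was below every WT liver. Acly fell by 1.07 on the log2 scale in Cyp1a2_CA (SE 0.256, adjusted p = 0.00154) and by 1.20 in Gls2_CA (SE 0.265, adjusted p = 0.00147), and the values with the offset were -1.48 and -1.58.

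Acaca, acetyl-CoA carboxylase 1 (chromosome 11, 84129672 to 84401651, plus strand), makes the malonyl-CoA that commits carbon to fat. WT livers were close together at 148, 169 and 179 CPM (lowest, median, highest), and Cyp1a2_CA animals ranged from 117 through 389 to 659. The Gls2_CA animals held 542 (GAB18), 333 (GAB229), 155 (GAB235), 376 (GAB242) and 316 CPM (GAB294). In Cyp1a2_CA 8 of 9 animals were above and CAB145 below all WT livers, and in Gls2_CA 4 of 5 were above, with the Ttn-high GAB235 among the WT values. Acaca rose by 1.08 on the log2 scale in Cyp1a2_CA (SE 0.279, adjusted p = 0.00276) and by 0.94 in Gls2_CA (SE 0.229, adjusted p = 0.00290). With the length and GC offset it turned to -0.55 (adjusted p = 0.153, range over the alternatives 2.82e-06 to 0.153) and -0.69 (adjusted p = 0.0726, range 1.18e-05 to 0.0726). The rise of Acaca was also below or near the median of other genes of its length class, 1.27 and 1.24.

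Fasn, fatty acid synthase (chromosome 11, 120805846 to 120824547, minus strand; its upstream bases with 3 CCAAT matches are printed above), fell in both groups although it is long. WT livers held 1117, 1499 and 1908 CPM (lowest, median, highest) and Cyp1a2_CA animals 107, 515 and 1640. The Gls2_CA animals held 1138 (GAB18), 335 (GAB229), 159 (GAB235), 544 (GAB242) and 459 CPM (GAB294). In each tumour group a single animal, CAB228 and GAB18, lay within the WT range and all others were below it. Fasn fell by 1.64 on the log2 scale in Cyp1a2_CA (SE 0.463, adjusted p = 0.00496) and by 1.65 in Gls2_CA (SE 0.403, adjusted p = 0.00288). With the offset the values were -2.88 and -3.00. Counts of Fasn per count of Acaca were 6.91 to 11.7 in WT, 0.475 to 2.49 in Cyp1a2_CA and 0.932 to 2.10 in Gls2_CA. Counts of Acly per count of Acaca were 2.08 to 2.77 in WT, 0.303 to 0.776 in Cyp1a2_CA and 0.310 to 0.765 in Gls2_CA. Both of these ratios did not overlap between tumours and WT, but the lengths of the paired genes differ and the part of length in the ratios was not tested. Counts of Scd1 per count of Fasn did overlap with WT. They were 2.67 to 7.39 in WT, 5.58 to 11.3 in Cyp1a2_CA and 2.99 to 18.5 in Gls2_CA.

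Downstream of Fasn, the elongase Elovl6 extends palmitate to stearate (chromosome 3, 129532355 to 129638495, plus strand). Scd1 is the desaturase that makes oleate (chromosome 19, 44394455 to 44407879, minus strand). Elovl6 had lower log2 fold changes than Scd1 in both groups, but the difference was not tested and their intervals overlapped. Counts of Elovl6 per count of Scd1 were 0.0312 to 0.0781 in WT libraries (median 0.0392). They were 0.00922 to 0.0304 in Cyp1a2_CA (median 0.0182), below all WT libraries. In Gls2_CA they were 0.0225 to 0.0800 (median 0.0431) and overlapped with WT. The part of length in this ratio was not tested. Elovl6 was at 271, 305 and 392 CPM in WT (lowest, median, highest), at 16.5, 54.3 and 170 in Cyp1a2_CA, and at 128 (GAB18), 50.9 (GAB229), 38.2 (GAB235), 117 (GAB242) and 93.2 CPM (GAB294) in Gls2_CA. All 14 tumour animals were below every WT liver. Elovl6 was 5.07-fold lower in Cyp1a2_CA (log2 fold change -2.34, SE 0.398, adjusted p = 7.58e-05) and 3.94-fold lower in Gls2_CA (-1.98, SE 0.287, adjusted p = 6.41e-05), and its log2 fold changes with the offset were -2.79 and -2.39. Scd1 was the most abundant member in WT, at 3845, 7853 and 9865 CPM, and was at 1038, 4287 and 12589 in Cyp1a2_CA. The Gls2_CA animals held 5694 (GAB18), 1182 (GAB229), 477 (GAB235), 3386 (GAB242) and 2162 CPM (GAB294). CAB228 was above all WT livers, 4 Cyp1a2_CA animals and 4 Gls2_CA animals were below them, and the rest overlapped. Scd1 fell by 1.60 on the log2 scale in Gls2_CA (SE 0.530, adjusted p = 0.0163). In Cyp1a2_CA its log2 fold change was -0.88 (SE 0.470, adjusted p = 0.106), which did not pass, but without CAB228 it was -1.29 (adjusted p = 0.00866, range over the alternatives 0.00866 to 0.190). It also passed with upper-quartile factors (adjusted p = 0.0478) and limma-voom (0.0436). With the offset Scd1 was -1.11 (adjusted p = 0.0504) in Cyp1a2_CA and -1.79 in Gls2_CA.

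Me1, cytosolic malic enzyme and a source of NADPH (chromosome 9, 86581371 to 86695953, minus strand), did not pass in either group. WT livers held 78.1, 102 and 137 CPM (lowest, median, highest), Cyp1a2_CA animals 33.3, 72.8 and 423, and Gls2_CA animals 226 (GAB18), 128 (GAB229), 28.7 (GAB235), 119 (GAB242) and 93.8 (GAB294). CAB228 stood alone at the top, and 5 of 9 Cyp1a2_CA animals were below all WT livers. The log2 fold change was -0.07 in Cyp1a2_CA (95% interval -1.09 to 0.94, adjusted p = 0.900) and 0.08 in Gls2_CA (-0.72 to 0.87, adjusted p = 0.860). Without CAB228 the Cyp1a2_CA value was -0.74 and passed (adjusted p = 0.0142, range over the alternatives 0.0142 to 0.977). With the offset Me1 was -0.030 and 0.19.

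Thrsp (chromosome 7, 97412938 to 97417730, minus strand) showed the largest difference of the 10. It was at 912, 1261 and 1570 CPM in WT (lowest, median, highest) and at 4.25, 38.8 and 85.8 in Cyp1a2_CA, with CAB52 (4.25) and CAB145 (4.78) far below the others. The Gls2_CA animals held 72.3 (GAB18), 28.6 (GAB229), 20.04 (GAB235), 41.7 (GAB242) and 34.1 CPM (GAB294). All 14 tumour animals were below all WT livers. It fell by 5.14 on the log2 scale in Cyp1a2_CA (SE 0.572, adjusted p = 8.74e-07) and by 5.08, or 33.7-fold, in Gls2_CA (SE 0.356, adjusted p = 1.88e-07). With the offset the values were -4.81 and -4.67. Counts of Thrsp per count of Fasn were 0.487 to 1.32 in WT, 0.0286 to 0.112 in Cyp1a2_CA and 0.0621 to 0.126 in Gls2_CA. The lengths of this pair differ too (2189 and 10947 exonic bases), and its log2 fold changes lie closer together with the offset (-4.81 and -2.88 in Cyp1a2_CA) than without it (-5.14 and -1.64).

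Pnpla3 (chromosome 15, 84167837 to 84187236, plus strand) was the least abundant member per length in WT. It held 3.73, 6.34 and 16.8 CPM in WT (lowest, median, highest), 3.48, 18.6 and 67.8 in Cyp1a2_CA and 22.3 (GAB18), 2.70 (GAB229), 7.10 (GAB235), 18.6 (GAB242) and 17.7 (GAB294) in Gls2_CA. The groups overlapped, with 5 of 9 and 3 of 5 tumour animals above all WT livers. The log2 fold change was 1.27 in Cyp1a2_CA (SE 0.569, adjusted p = 0.0566) and 0.55 in Gls2_CA (SE 0.538, adjusted p = 0.373), and neither passed. The Cyp1a2_CA value passed under 10 of 26 alternatives (adjusted p from 0.0230 to 0.132 over all of them), including DESeq2 (0.0259), limma-voom (0.0393), the length and GC offset (1.56, adjusted p = 0.0252, against 0.86 in Gls2_CA), 1 library per animal (0.0475) and the fits without CAB145 (0.0230), CAB26 (0.0474), CAB225 (0.0404), CAB239 (0.0463), WT_Cre-BL3 (0.0459) or WT_Cre-BL5 (0.0344).

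**Figure D2:**
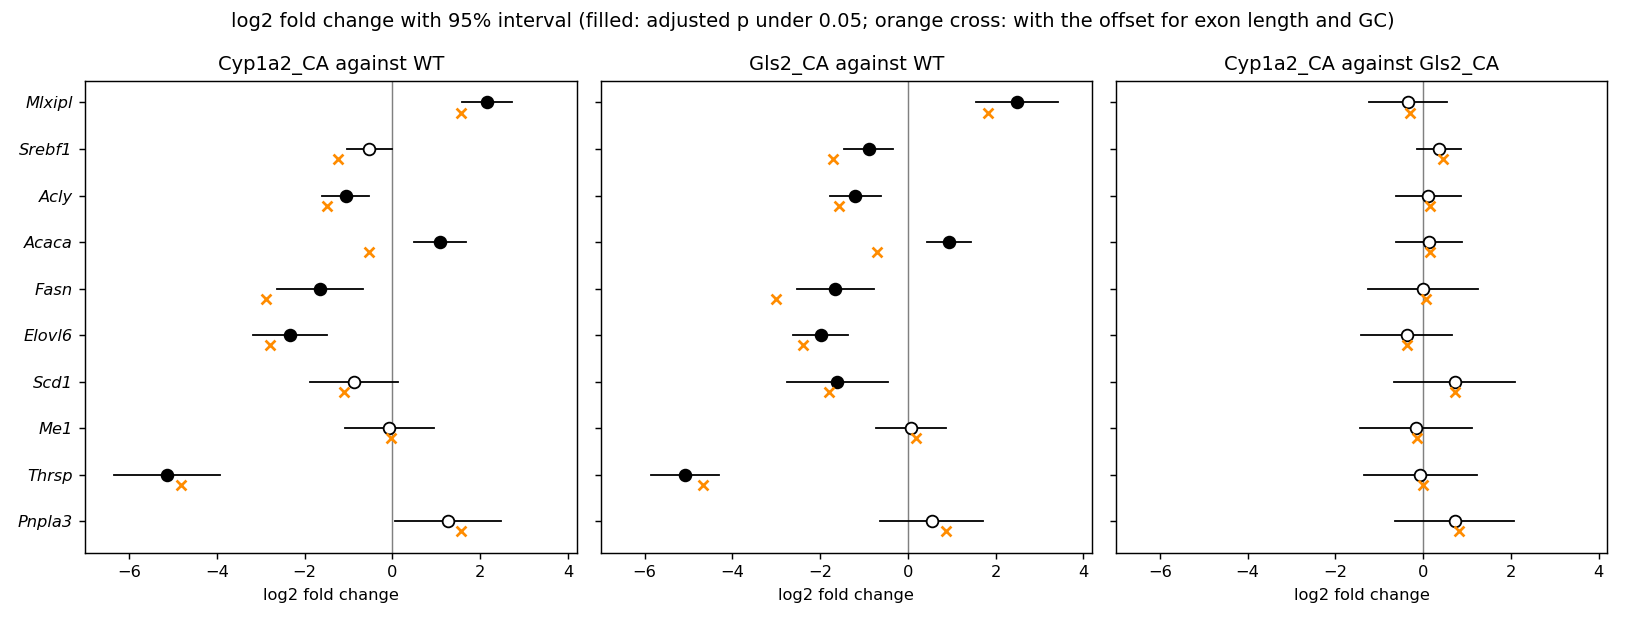
log2 fold change of each member (horizontal axis) with its 95% interval in the 3 comparisons; filled points have an adjusted p under 0.05 and orange crosses give the value with the offset for exon length and GC. Acaca crosses 0 with the offset in both comparisons with WT, and every interval in the panel of Cyp1a2_CA against Gls2_CA spans 0.

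Levels between genes were compared as CPM per kilobase of exon. In WT the order was Scd1 (1482 ± 485, SD, n = 6), Thrsp (564 ± 124), Fasn (140 ± 30.2), Acly (73.2 ± 10), Mlxipl (73.0 ± 13.4), Srebf1 (70.1 ± 22.4), Elovl6 (48.7 ± 6.39), Me1 (27.2 ± 5.77), Acaca (9.79 ± 0.689) and Pnpla3 (5.65 ± 3.66). The ranges of the first 3 did not overlap with their neighbours, Acly, Mlxipl and Srebf1 each overlapped with the next in order, Elovl6 and Me1 did not, and Acaca overlapped with Pnpla3. In both tumour groups Scd1 (855 ± 722, n = 9, and 527 ± 420, n = 5) and Mlxipl (346 ± 143 and 444 ± 253) were the highest and overlapped with each other. Thrsp was the 8th of 10 in both, at 17.0 ± 12.4 and 18.0 ± 9.16 CPM per kilobase. From the 3rd place down, all neighbours in the tumour orders overlapped.

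The zone in which the driver acts was compared directly between Cyp1a2_CA and Gls2_CA, which share strain mix, tamoxifen and alleles. None of the 10 genes passed, and 0 of 17129 genes (0%) were called by edgeR, with 554 at an unadjusted p under 0.05, while DESeq2 called 7 higher and 12 lower and limma-voom 0 higher and 10 lower. The adjusted p was 1 for each member. The intervals leave room for sizeable differences. The log2 difference, Cyp1a2_CA minus Gls2_CA, was 0.72 for Scd1 (95% interval -0.66 to 2.09) and 0.72 for Pnpla3 (-0.63 to 2.08). It was -0.37 for Elovl6 (-1.41 to 0.66), 0.36 for Srebf1 (-0.15 to 0.87) and -0.34 for Mlxipl (-1.24 to 0.55). Fasn (0.00, -1.27 to 1.26) and Thrsp (-0.07, -1.36 to 1.23) had nearly equal means in the 2 groups. The interval was narrowest for Srebf1.

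The spread between animals was wide in the tumours. The ratio of the highest to the lowest animal was 15.3 for Fasn, 20.2 for Thrsp, 12.1 for Scd1, 10.3 for Elovl6 and 12.7 for Me1 in Cyp1a2_CA, against 1.71, 1.72, 2.57, 1.45 and 1.75 in WT. For Srebf1 it was 2.81 against 2.20. The difference in spread was not tested. CAB228 was the highest of the 9 Cyp1a2_CA animals for 7 of the 10 genes and GAB18 the highest of the 5 Gls2_CA animals for 8. CAB145 was the lowest for 5, CAB52 for 3 and CAB225 for 2, and in Gls2_CA GAB235 was the lowest for 8. Tumours of 1 animal also differed. Among the 3 libraries of GAB242 the ratio of highest to lowest was 2.77 for Fasn, 2.50 for Thrsp and 2.55 for Mlxipl, and among the 3 of GAB294 it was 1.90, 1.66 and 1.52. The pair of libraries of CAB28 differed by 1.21 in Fasn and 1.54 in Thrsp.

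Within tumours the enzymes of the pathway varied together. Over the 11 tumour animals with Ttn under 1000 CPM, 45 pairs of members were compared on log2 CPM, with p-values from 100000 permutations, two-sided and adjusted over the 45 pairs. In 16 pairs both Pearson's r and Spearman's rho passed, and 44 of 45 values of r were positive. Over all 112013028 pairs of the 14968 genes tested, 50.1% of r were positive and 0.505% of pairs reached the lowest r (0.76) and rho (0.73) of those 16, against 97.8% and 35.6% of the members' pairs. Fasn and Thrsp had r = 0.95 (permutation p = 1e-05, the smallest that these permutations can give, adjusted 0.000225) and rho = 0.89 (permutation p = 0.00057, adjusted 0.00332), and r = 0.91 without the 2 animals farthest from the median of Fasn. Fasn and Scd1 had r = 0.92 (permutation p = 2e-05, adjusted 0.000225) and rho = 0.92 (permutation p = 0.00024, adjusted 0.00216), or r = 0.90 without the 2 farthest. The 16 pairs lay among Acaca, Acly, Fasn, Scd1, Elovl6, Thrsp and Me1. Acaca and Fasn, which differed in opposite directions from WT without the offset, had r = 0.89 (permutation p = 1e-05, adjusted 0.000225) and rho = 0.95 (permutation p = 5e-05, adjusted 0.0021), or r = 0.80 without the 2 farthest. Over the 16 pairs r without the 2 farthest ran from 0.51 (Acly and Elovl6) to 0.91, and over all 45 pairs its median was 0.46 against 0.64 with all 11 animals.

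Among these 11 animals no pair that included Srebf1 or Mlxipl passed. Srebf1 passed in 0 of its 9 pairs, with a median r of 0.10, and with Fasn it had r = 0.08 (permutation p = 0.825, adjusted 0.863) and rho = -0.05 (permutation p = 0.905, adjusted 0.926), or r = -0.35 without the 2 farthest. Mlxipl passed in 0 of 9, with a median r of 0.48. Its highest r, with Thrsp, was 0.64 (permutation p = 0.0382, adjusted 0.0732), with rho = 0.35 (permutation p = 0.286, adjusted 0.415), and fell to -0.15 without the 2 animals farthest from the median of Thrsp, so it rests on those animals. Pnpla3 also passed in 0 of 9 (median r 0.46), while Thrsp passed in 6 of 9 (0.82). These zeros depend in part on the animals used. Over all 14 tumour animals, the 3 Ttn-high ones included, Mlxipl passed with Acaca (r = 0.72, permutation p adjusted 0.0101, and rho = 0.64, adjusted 0.0302) and with Me1 (r = 0.66, adjusted 0.0201, and rho = 0.73, adjusted 0.00959), Pnpla3 passed with Scd1 (r = 0.70, adjusted 0.0122, and rho = 0.63, adjusted 0.0373), and Srebf1 passed in 0 of 9. Within the 7 Cyp1a2_CA animals alone, 7 pairs passed, among them Acaca and Fasn (r = 0.89, exact permutation p = 0.000397, adjusted 0.0125) and Scd1 and Thrsp (r = 0.96, exact permutation p = 0.000794, adjusted 0.0125). There Mlxipl passed on r but not on rho with Acaca and with Thrsp. With Acaca it had r = 0.86 (exact permutation p adjusted 0.0347) and rho = 0.75 (adjusted 0.124). With Thrsp it had r = 0.84 (adjusted 0.0331) and rho = 0.82 (adjusted 0.0853). Without the 2 farthest animals these r were 0.60 and 0.50. The 4 remaining Gls2_CA animals were too few for a value of their own. All points share library scaling, and RNA level is not the activity of a transcription factor, which for SREBP-1 and ChREBP depends on processing and metabolites.

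**Figure D3:**
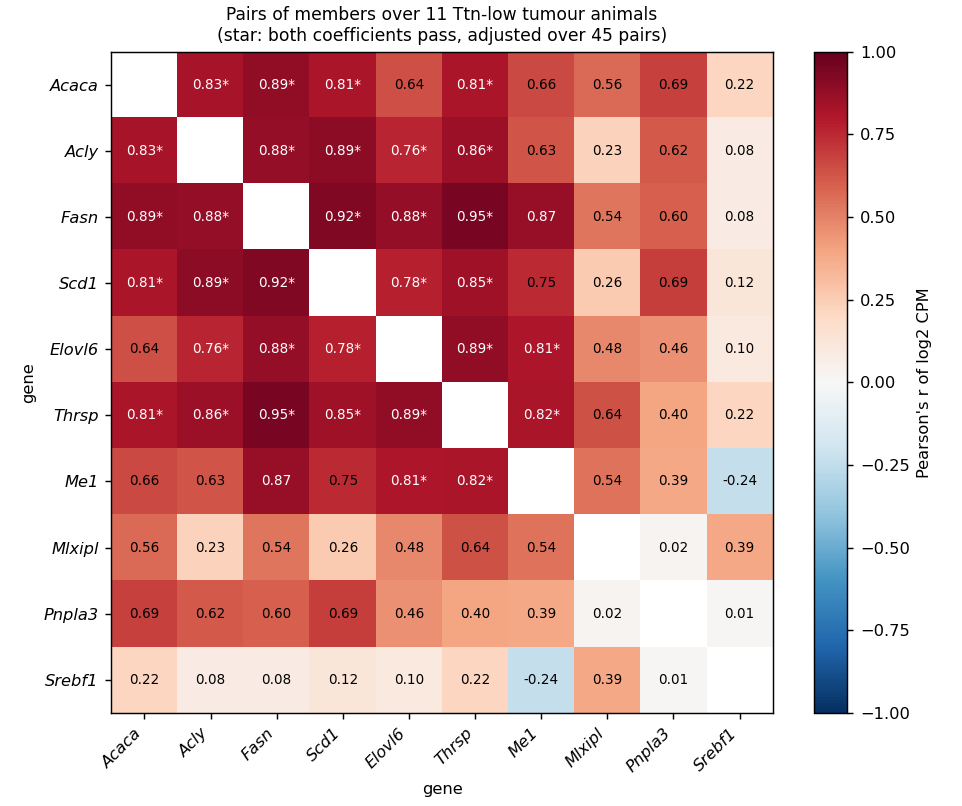
Pearson's r of log2 CPM for each pair of members over the 11 tumour animals with Ttn under 1000 CPM, coloured from blue (-1) to red (1), with a star where both coefficients pass after adjustment over 45 pairs. The 16 starred pairs lie among the enzymes and Thrsp, and the rows of Mlxipl, Pnpla3 and Srebf1 hold none.

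**Figure D4:**
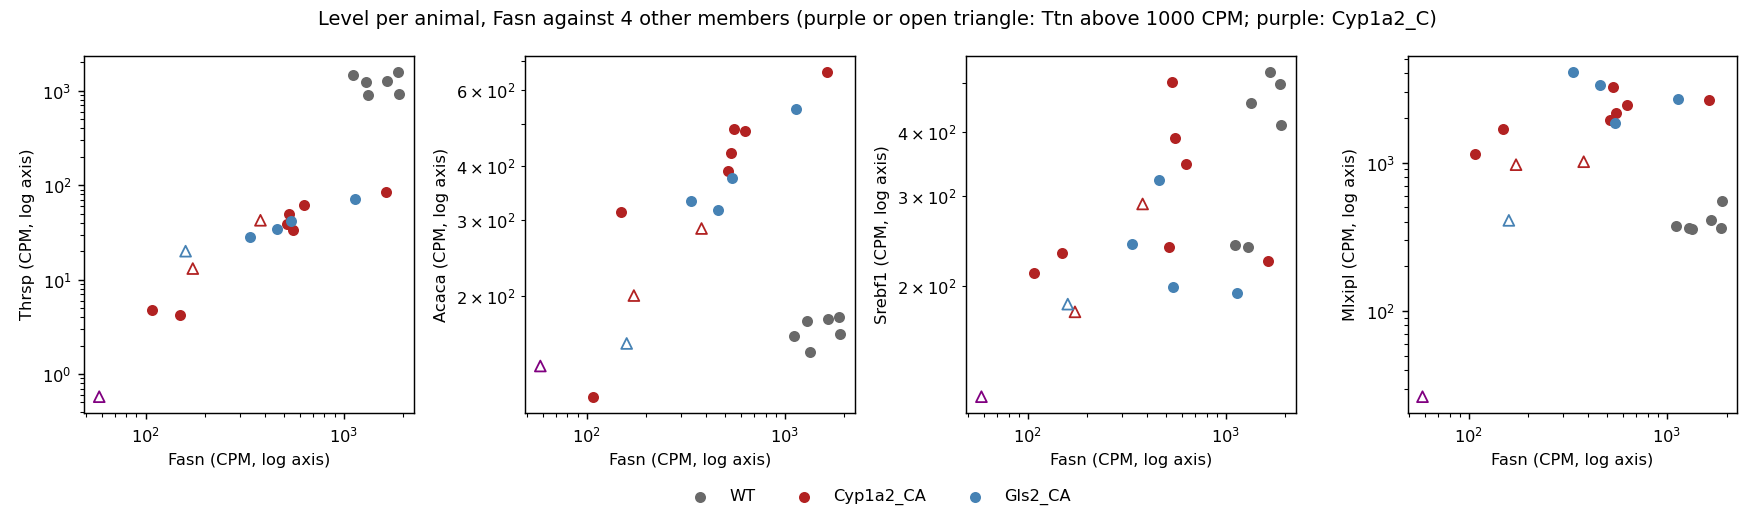
Level per animal (CPM, log axes) of Thrsp, Acaca, Srebf1 and Mlxipl against Fasn, coloured by group, with open triangles for animals with Ttn above 1000 CPM. Tumour animals line up with Fasn for Thrsp and Acaca (r = 0.95 and 0.89 over the 11 with low Ttn), with the WT livers off that line, and show no such order for Srebf1 (r = 0.08).

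Genes whose rank over the same 11 animals was most like that of a member were found among 14968 genes. Acaca was closest to Dbi, the acyl-CoA binding protein (rho = 0.982), and then to Fasn (0.955). Fasn was closest to Acaca and Zfp454 (both 0.955) and to Dbi (0.945). Thrsp was closest to Aacs, the acetoacetyl-CoA synthetase of the cytosol (0.982), with Scd1 the third (0.927). Mlxipl was closest to Col27a1 (0.991) and Srebf1 to Bbs4 (0.936). With 11 animals and this many genes such values are a description only.

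Other genes of the pathway were read from lists, whose counts are to be set against the shares over all tested genes. Those shares were 38.3% higher and 32.7% lower in Cyp1a2_CA, and 39.2% higher and 34% lower in Gls2_CA. With the offset 5017 of 14815 genes were higher and 4901 lower in Cyp1a2_CA, and 4726 of 13497 higher and 4645 lower in Gls2_CA. Whether any list departs from these shares was not tested. Of 21 genes that control SREBP and ChREBP, 12 rose and 5 fell in Cyp1a2_CA (median log2 fold change 0.56, all genes 0.17) and 12 rose and 4 fell in Gls2_CA (0.61, all genes 0.14). With the offset the counts were 10 and 7, and 9 and 7. Insig2, which retains SREBP in the endoplasmic reticulum, rose from 60.7 ± 10.3 CPM in WT (SD, n = 6) to 483 ± 142 in Cyp1a2_CA (n = 9) and 416 ± 191 in Gls2_CA (n = 5), or by 2.91 and 2.66 on the log2 scale (adjusted p = 1.71e-08 and 3.88e-05). Insig1, its sterol-induced relative and itself an SREBP target, fell from 259 ± 68.7 CPM to 66.1 ± 34.3 and 61.3 ± 31.6 (-2.05 and -2.19, adjusted p = 6.81e-05 and 0.000184). All tumour animals of both groups were above WT for Insig2 and below WT for Insig1. Ppargc1b, a coactivator of SREBP-1, fell (log2 fold changes -2.34 and -1.92), as did Mid1ip1, the paralogue of Thrsp that promotes polymerisation of acetyl-CoA carboxylase (-1.11 and -1.23). Nr1h2, the gene of the oxysterol receptor LXR-beta, rose (1.63 and 1.52). Nr1h3, the gene of LXR-alpha, an inducer of Srebf1, rose by less (0.80 and 0.71), and its Gls2_CA call (adjusted p = 0.0262) was lost under 8 of 22 alternatives (up to 0.111). Srebf2, the gene of SREBP-2, had log2 fold changes of 0.30 (adjusted p = 0.148) and 0.44 (adjusted p = 0.0292), which turned to -0.61 and -0.59 with the offset. Its Gls2_CA call was lost under 10 of 22 alternatives (adjusted p up to 0.266). In Cyp1a2_CA its value passed in the same direction under 2 of 26 alternatives.

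Of 13 genes that carry the insulin signal, 5 rose and 4 fell in each comparison with WT, and with the offset 4 rose and 7 fell in each. Without the offset these counts were near the shares over all genes. Foxo1, a factor that insulin restrains, fell from 87.2 ± 11.2 CPM to 20.9 ± 3.93 and 25.9 ± 8.25 (log2 fold changes -2.14 and -1.85, adjusted p = 8.12e-10 and 6.27e-06). Akt2, the main insulin-responsive kinase of this step in liver, rose (1.40 and 1.36, or 0.55 and 0.45 with the offset).

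Of 21 genes tested that supply carbon and NADPH, 2 rose and 14 fell in each comparison with WT, with median log2 fold changes of -1.24 and -1.20. With the offset 0 rose and 14 fell in each, with medians of -1.15 and -1.08. Slc25a1, which exports the citrate that Acly cleaves, fell by 1.25 and 1.40 on the log2 scale (adjusted p = 5.84e-05 and 0.00136), and Pdhb, of pyruvate dehydrogenase, by 2.39 and 2.36 (adjusted p = 2.05e-08 and 5.81e-07). Acss2, which makes acetyl-CoA from acetate, was 1 of the 2 that rose (1.53 and 0.95, adjusted p = 0.00311 and 0.00425), and with the offset it did not pass (0.64 and 0.04, adjusted p = 0.199 and 0.906, where the lowest over all alternatives was 8.66e-06 and 6.39e-05).

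Of 9 known ChREBP targets tested, 1 rose and 3 fell in Cyp1a2_CA, and 1 rose and 2 fell in Gls2_CA. Fgf21, a secreted hormone of the liver, was the one that rose, from 0.399 ± 0.285 CPM to 15.1 ± 9.96 and 26.6 ± 20.4 (log2 fold changes 5.13 and 5.90, adjusted p = 3.11e-06 and 6.6e-05). Slc2a2, the glucose transporter GLUT2, fell from 320 ± 31.0 CPM to 37.6 ± 19.5 and 56.3 ± 29.6 (-3.17 and -2.62, adjusted p = 3.5e-07 and 3.52e-05). Gpd1, the glycerol-3-phosphate dehydrogenase, fell by 1.71 and 1.39 (adjusted p = 6.86e-05 and 0.0210), the second lost with no low-count filter (0.0537, range over the alternatives 0.000546 to 0.0537). Pklr, the liver pyruvate kinase and a classical ChREBP target, did not pass (-0.36 and 0.33, adjusted p = 0.286 and 0.567), although its Gls2_CA value passed under 2 of 22 alternatives (adjusted p down to 0.0348).

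Further along the pathway, 8 of 20 genes of elongation and desaturation rose and 4 fell in Cyp1a2_CA, and 6 rose and 5 fell in Gls2_CA. Scd2, the desaturase of non-hepatic tissues, rose from 8.15 ± 1.98 CPM to 96.9 ± 56.1 and 131 ± 54.8 (3.49 and 3.91, adjusted p = 3.75e-06 and 2.2e-07), the opposite direction to Scd1 in Gls2_CA. Elovl7 rose from 0.347 ± 0.144 CPM to 9.07 ± 5.11 and 5.43 ± 4.32 (4.61 and 3.90). Hsd17b12, the ketoreductase of the elongation cycle, fell (-1.84 and -2.16). Acacb, the carboxylase of the mitochondrial surface, did not pass (0.45 and 0.48, adjusted p = 0.343 and 0.261), and was -0.63 and -0.69 with the offset. Its Gls2_CA value passed in the same direction under 2 of 22 alternatives (lowest adjusted p over all alternatives 0.0314).

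Of genes that bind or activate fatty acids, 6 of 17 rose and 7 fell in Cyp1a2_CA, and 4 of 16 rose and 7 fell in Gls2_CA. Cd36, a fatty acid uptake receptor, rose from 14.6 ± 0.823 CPM to 250 ± 232 and 458 ± 263 (4.02 and 4.86, adjusted p = 3.76e-06 and 1.17e-06). Slc27a2, the main fatty acid transport protein and very long chain acyl-CoA synthetase of this family in hepatocytes, fell (-2.89 and -2.98). Of triglyceride synthesis genes 10 of 16 rose and 4 fell in Cyp1a2_CA and 9 of 15 rose and 4 fell in Gls2_CA (median log2 fold change 1.01 and 0.97), and with the offset 6 of 15 rose and 4 fell, and 5 of 14 rose and 4 fell. Dgat2, which esterifies newly made fatty acids in hepatocytes, fell from 523 ± 23.9 CPM to 101 ± 27.96 and 103 ± 36.8 (-2.46 and -2.45, adjusted p = 3.48e-09 and 1.32e-06). Agpat3, an acyltransferase of the same route, rose (1.30 and 1.43) and did not pass with the offset (adjusted p = 0.0734 and 0.0886, where the lowest over all alternatives was 2.04e-18 and 4.63e-09).

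Among 21 genes of lipid droplets and lipolysis, 4 rose and 7 fell in Cyp1a2_CA and 5 rose and 7 fell in Gls2_CA. Plin2, the coat protein of droplets, rose from 53.8 ± 5.13 CPM to 231 ± 99.3 and 183 ± 106 (2.02 and 1.65, adjusted p = 2.35e-06 and 0.00177). Hsd17b13, a hepatocyte droplet enzyme, fell (-1.61 and -1.78), as did Fitm2, needed for droplet budding (-2.48 and -2.28). In cholesterol synthesis, the parallel pathway under SREBP-2, 7 of 20 rose and 6 fell in Cyp1a2_CA, near the shares over all genes, and 7 rose and 9 fell in Gls2_CA. Ebp (-1.72 and -2.19) and Tm7sf2 (-1.70 and -2.05) were among those that fell. Among those that rose in Cyp1a2_CA were Hmgcs1 (2.27), Dhcr7 (2.04) and Mvk (1.62).

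**Figure D5:**
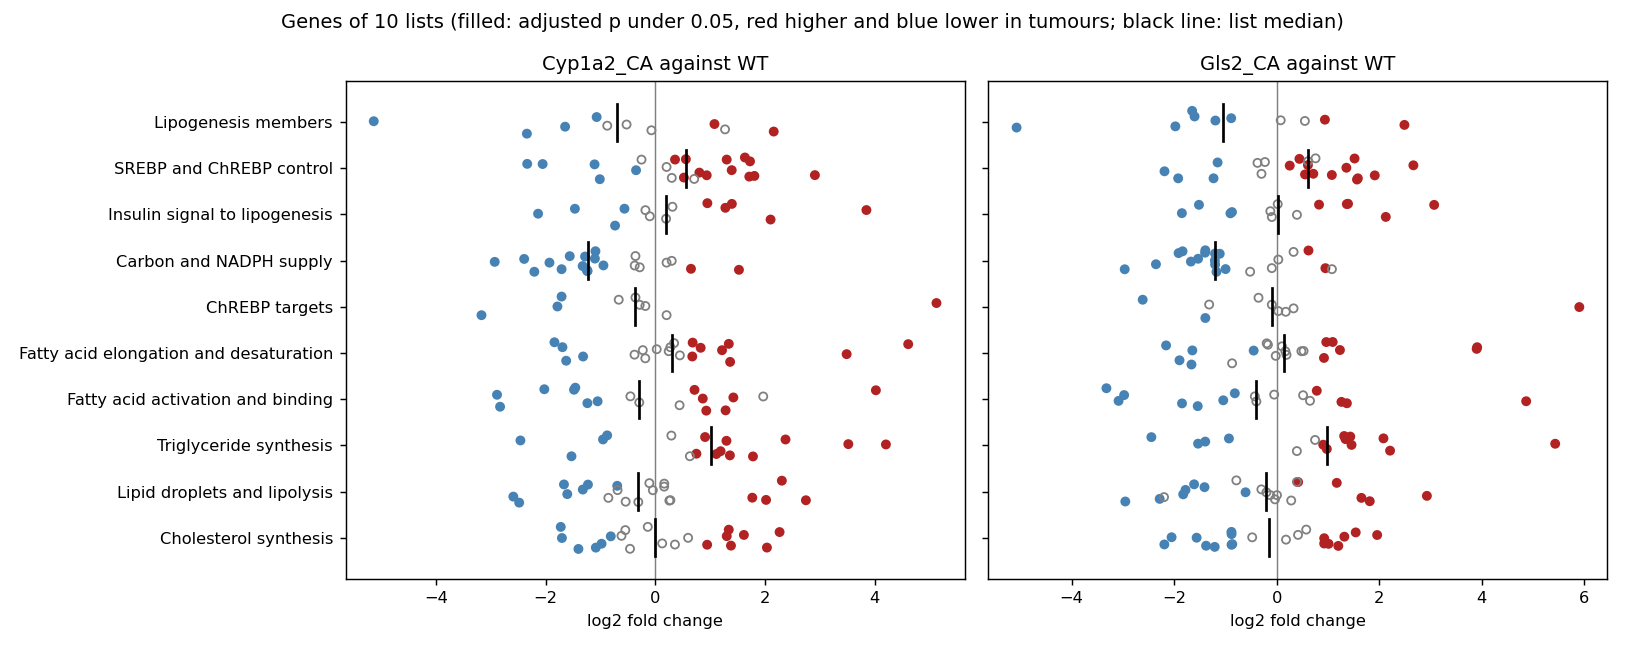
log2 fold change against WT (horizontal axis) of the tested genes of 10 lists (rows) in Cyp1a2_CA and in Gls2_CA; filled points have an adjusted p under 0.05 and black lines are list medians. The supply list lies mostly below 0 (14 of 21 fell in each, against 32.7% and 34% of all tested genes). The triglyceride synthesis list lies mostly above (10 of 16 and 9 of 15 rose, against 38.3% and 39.2%).

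The Cyp1a2_C tumour, the only tumour library without the floxed Arid2 allele, had no replicate and enters no test. It was below all WT livers for 9 of the 10 genes and within the WT range for Pnpla3 (4.37 CPM). Its levels were 0.576 CPM for Thrsp, 9.09 for Elovl6, 30.9 for Scd1, 58.4 for Fasn, 90.2 for Acly, 10.8 for Me1, 122 for Srebf1 and 138 for Acaca. It also had Ttn above 1000 CPM and the lowest hepatocyte marker sum given above, so genotype, tumour and cell content cannot be told apart.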

How the data were processed

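Bulk RNA from frozen tissue was sequenced after preparation with a Nugen Ovation kit, per the labels' protocols. The authors deposited whole-number read counts per gene symbol, with no normalization, on build mm10 per the submitters' processing notes. Aligner, counter and strand setting are not stated in the labels or files used, so reads of overlapping or antisense genes could not be separated. Counts were summed over libraries whose titles share an animal number (CAB28, GAB242, GAB294), giving 9 Cyp1a2_CA, 5 Gls2_CA and 6 WT animals. Nothing else in the labels says which libraries are separate animals, and p-values measure the spread between these numbers.

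Each pair of groups was fitted alone over all genes with edgeR 4.0.16 in R 4.3.3 (filterByExpr, TMM, robust quasi-likelihood test, Benjamini-Hochberg threshold 0.05). "Rose" and "fell" are used for genes past it. Relations used log2(CPM + 0.1) (scipy 1.17.1). The alternatives used other scaling, filters, replicate units and samples, DESeq2 1.42.0, limma-voom (limma 3.58.1), an offset for exon length and GC (GENCODE M21 annotation, values for 88 to 90.1% of tested genes), and each animal left out. The pathway counts with the offset and without Ttn-high libraries were added after seeing the data. Gene positions are GENCODE's on mm10. The fits were also run on simulated counts in which few genes were changed. In the data most genes were called against WT, so that run does not test these contrasts.

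The members and all gene lists were chosen with earlier results of these data known, so their directions are no independent evidence. Named were the members, the 3 genes of each list with the smallest p in either comparison with WT, and a set of 14 further genes of the pathway, of which the text gives part; 2 genes named by this rule are not reported here. Cyp1a2_C, with 1 library, enters no test.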

Additional observations from a re-analysis of the deposited data

Results flagged for a closer look

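Among 30 sets of values (10 members in 3 groups of animals), 6 held an animal whose gap to its nearest neighbour took a large share of the group's range. The limit used flags about 1 in 20 sets where values are independent and normally distributed. CPM were not put on a log scale for it, and genes that vary together share their animals. The number of flags can therefore not be set against chance. In Cyp1a2_CA all 4 flags were the animal CAB228. Its Fasn level of 1640 CPM compared with 628 CPM in the next animal, its Me1 level of 423 CPM with 98.6, its Scd1 level of 12590 CPM with 5079 and its Pnpla3 level of 67.8 CPM with 28.7. Without CAB228 the log2 fold change against WT was -2.09 for Fasn, -0.74 for Me1 and -1.29 for Scd1. In WT, WT_Cre-BL3 held 392 CPM of Elovl6 against 310 in the next liver, and WT_Cre-BL1 held 551 CPM of Mlxipl against 413. Both WT values remain on the same side of every tumour animal of Cyp1a2_CA as the other WT livers.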

How the results depend on the processing

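No paired analysis was possible because the groups share no animal numbers and the replicate numbers only name samples. With the offset for exon length and GC, the log2 fold change of Acaca turned to -0.55 in Cyp1a2_CA and -0.69 in Gls2_CA against WT, that of Srebf2 to -0.61 and -0.59 and that of Acacb to -0.63 and -0.69, and 1 member in place of 2 rose in Gls2_CA. Me1, which did not pass, changed sign without the Ttn-high libraries in Cyp1a2_CA (0.087) and with upper-quartile factors in Gls2_CA (-0.15). Between Cyp1a2_CA and Gls2_CA, Fasn was 0.016 with every library as a replicate and 0.066 with the offset. Leaving out each animal moved Me1 between -0.74 and 0.049 (Cyp1a2_CA) and -0.28 and 0.32 (Gls2_CA), and Pklr in Gls2_CA between -0.072 and 0.62. For Cyp1a2_CA minus Gls2_CA the same ranges were -0.45 to 0.49 (Fasn), -0.32 to 0.27 (Thrsp), -0.83 to 0.21 (Me1), -0.050 to 0.35 (Acaca) and -0.012 to 0.34 (Acly). The offset uses 88 to 90.1% of the genes. Of the related pairs of members, 7 passed in the Cyp1a2_CA animals alone, where only 7 animals enter, 24 over all 14 tumour animals and 12 with every library as a point. Upper-quartile factors shifted the median of all genes by -0.22 and -0.23 and the offset by -0.17 and -0.16 in the comparisons with WT. Of the members' alternatives, 232 of 260 kept direction and side of the threshold in Cyp1a2_CA against WT, with 21 that passed newly, and 215 of 220 in Gls2_CA, with 1 call lost. In the zone comparison 234 of 250 did. The members' counts, apart from the one above, stayed within 1.5 times of those reported, from 2 to 3 up and 4 to 6 down in Cyp1a2_CA and from 5 to 6 down in Gls2_CA. Lower depth in WT limits weak genes such as Pnpla3, with a lowest count of 60.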
